A study of Mus musculus with 3 samples.

Results

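Keratins are the intermediate filament proteins of epithelial cells. The 10 keratin genes described here were taken by name from the 46095 gene symbols of the deposited count table. They form a luminal class (Krt7, Krt8, Krt18 and Krt19), a basal class (Krt5, Krt14, Krt15 and Krt17) and a squamous-type class (Krt4 and Krt13). All libraries came from prostate tumors of TRAMP mice at 37 weeks of age. TRAMP mice are C57BL/6 animals that carry a viral oncoprotein under prostatic epithelial expression, and the transgene was shared by both groups. The control library, TRAMP, held RNA from mice that are wild type for the histone demethylase gene Phf8. Phf8-KO1 and Phf8-KO2 are libraries of TRAMP mice labeled as Phf8 knockouts. Each library is an equal-mass pool of RNA from 3 mice, so differences between single mice and their lesions were not measured. The sources used here do not state whether any mouse is shared between the Phf8-KO pools, so p-values measure only the spread between these libraries.

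A keratin filament is built from pairs of one type I and one type II protein. Krt8 (type II) with Krt18 or Krt19 (type I) is the usual set of simple epithelia, which include the secretory luminal cells of the prostate, and Krt7 (type II) is found in ducts and transitional epithelium. Krt5 (type II) with Krt14 (type I) is the set of basal cells. Krt15 is a further type I keratin of basal layers, and Krt17 is a type I keratin that stressed or regenerating epithelium makes. Krt4 (type II) with Krt13 (type I) is the set of the upper layers of internal stratified epithelia such as the esophagus.

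Libraries held 26747443 to 31876182 counts, and the 10 keratins took 0.346% of the counts of TRAMP, 0.526% of Phf8-KO1 and 0.489% of Phf8-KO2. Phf8 itself had a log2 fold change of -0.33 (standard error 0.25, edgeR adjusted p = 0.44), and lay at 19.4 CPM in TRAMP against 14.98 in Phf8-KO1 and 15.9 in Phf8-KO2, where CPM is counts per 1000000 counts of the library after TMM scaling. The deleted part of the gene is not given in the sources used here, so this count does not check the genotype. The prostate marker Pbsn, the probasin gene, was present in every library, at 110 to 175 CPM. Differences were tested over 18216 genes with the quasi-likelihood test of edgeR, whose calls required a Benjamini-Hochberg adjusted p below 0.05 together with a more than 2-fold change. Its 1 residual degree of freedom comes from the Phf8-KO pools, and the single TRAMP pool was taken to vary as they do. The fit also draws on the spread of all genes tested, so a p-value does not rest on the gene's own spread alone.

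Keratin genes of one type lie side by side in the mouse genome and resemble each other in the part that encodes the start of the central rod of the protein. Because the counts of a gene depend on telling its reads from those of its relatives, the most similar type I coding windows are given, from the GENCODE transcripts on GRCm38. The window was centered on the longest stretch that Krt14 shares with Krt16, and the letters in capitals differ from Krt14.
Krt14, chr11:100207054-100207113, minus strand: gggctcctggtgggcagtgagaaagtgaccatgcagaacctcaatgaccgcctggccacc
Krt16, chr11:100248513-100248572, minus strand: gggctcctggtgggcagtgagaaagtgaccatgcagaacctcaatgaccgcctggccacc
Krt17, chr11:100260675-100260734, minus strand: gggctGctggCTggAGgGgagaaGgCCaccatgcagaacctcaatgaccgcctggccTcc
Krt15, chr11:100135526-100135585, minus strand: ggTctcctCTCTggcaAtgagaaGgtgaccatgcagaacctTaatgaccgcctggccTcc
Krt19, chr11:100145572-100145631, minus strand: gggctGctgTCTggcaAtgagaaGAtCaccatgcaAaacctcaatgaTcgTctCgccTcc

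Krt14 and Krt16 were identical over these 60 bases and over 134 coding bases in a row. Krt17 differed from Krt14 at 10 of the 60 positions, Krt15 at 9 and Krt19 at 13. Of all 50-base words in the main transcript, 14.4% for Krt14 and 8.52% for Krt5 also occurred in transcripts of another gene. The share was 26.9% for Krt8, all with the pseudogene Krt8-ps, and 3.99% for Krt17. It was 0.666% for Krt15, 0.72% for Krt18 and 0% for Krt19, Krt7, Krt4 and Krt13. Counts of Krt14, Krt5 and Krt8 are therefore less certain than those of Krt15, Krt19 and Krt4, although only 0 to 3 counts were assigned to Krt16, 5 to 43 to Krt6a and 119 to 201 to Krt8-ps. Krt17, which shared 55 words with Krt14, had 27, 170 and 75 counts in TRAMP, Phf8-KO1 and Phf8-KO2, beside 80, 315 and 295 counts of Krt14. Krt7, Krt8 and Krt5 also overlap a noncoding gene on the opposite strand in GENCODE, and the strand setting of the counting is not given in the sources used here.

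Per kilobase of transcript, the luminal keratins Krt18, Krt19 and Krt8 had the highest levels of the 10 in every library. Krt19, Krt4, Krt14 and Krt17 lay above TRAMP in both Phf8-KO pools and Krt15 lay below it in both. The basal keratins thus differed in direction among themselves. In bulk tumor RNA, fewer cells of a type and less keratin RNA per cell cannot be told apart, and markers of seminal vesicle, muscle and fat, whose values follow the keratins, also differed between these pools. Of the 10 members, edgeR called 0, against 0.0384% of all genes tested. Both Phf8-KO pools lay on the same side of TRAMP for 8 members, against 83.9% of all genes, with 6 above it (41% of all genes) and 2 below it (42.8%). At an unadjusted p under 0.05 there were 3 members (Krt4, Krt14 and Krt15), or 30% of the 10, against 27.1% of all genes. DESeq2, the tool the study used, called Krt19, Krt14 and Krt4 higher and Krt15 lower, which is 3 and 1 of the 9 members with an adjusted p against 9.42% and 4.59% of all such genes. Both Phf8-KO pools lay over 2-fold from TRAMP in the same direction for 4 members, against 23.4% of all genes, and the Phf8-KO pools lay over 2-fold apart from each other for 3 members, against 18.3% of all genes.

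**Figure D1:**
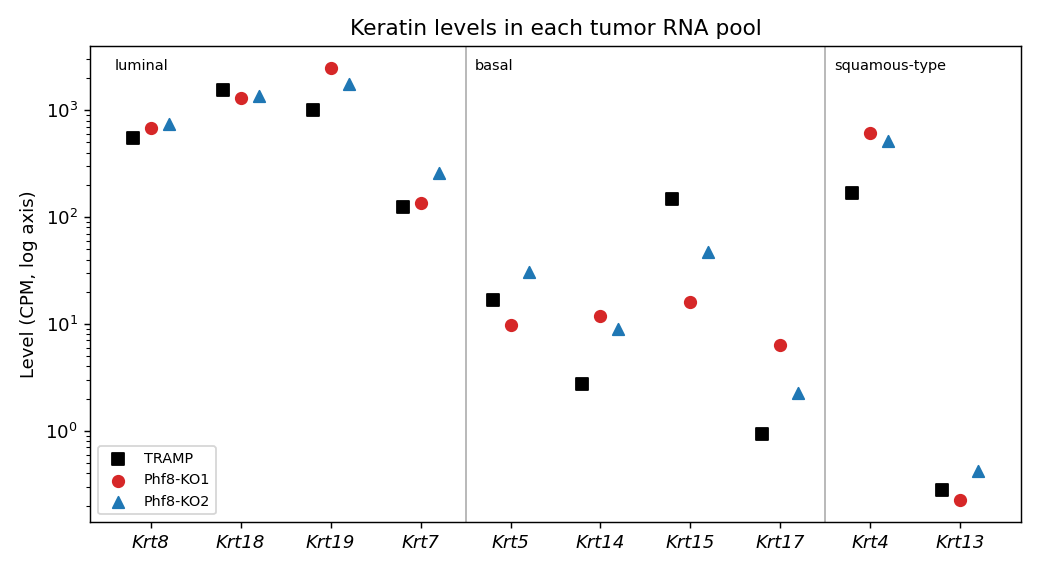
Level in CPM (log axis) of the 10 keratins by library (square, TRAMP; circle, Phf8-KO1; triangle, Phf8-KO2), where every library pools RNA of 3 mice. Krt19 and Krt4 lie higher in both Phf8-KO pools than the square of TRAMP, and Krt15 lies lower, at 16.2 and 47.1 CPM against 148 CPM.

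Of the luminal keratins, Krt18 had the highest level per kilobase in TRAMP and Krt19 in both Phf8-KO pools. Krt18 lay at 1557 CPM in TRAMP against 1305 in Phf8-KO1 and 1348 in Phf8-KO2, so that both Phf8-KO pools lay slightly below TRAMP and close to each other. Its log2 fold change was -0.23 (standard error 0.33, edgeR adjusted p = 0.67). Krt8, its type II partner, lay at 552 CPM in TRAMP against 683 in Phf8-KO1 and 736 in Phf8-KO2, so both pools were above TRAMP (log2 fold change 0.36, standard error 0.27, edgeR adjusted p = 0.44).

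Krt19 lay at 1011 CPM in TRAMP against 2503 in Phf8-KO1 and 1757 in Phf8-KO2. Both Phf8-KO pools were above TRAMP, by 2.48 times (95% counting interval 2.44 to 2.51) and 1.74 times (1.71 to 1.76). The log2 fold change of Krt19 was 1.08 (standard error 0.44), and the adjusted p was 0.22 in edgeR and 0.0099 in DESeq2. Krt7 lay at 125 CPM in TRAMP and close to it, at 135, in Phf8-KO1 but at 260 in Phf8-KO2, so only 1 Phf8-KO pool stood clearly above TRAMP. The difference between the Phf8-KO pools in Krt7, 1.93 times, was larger than that between TRAMP and Phf8-KO1.

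Divided by the length of the main transcript, the order of the luminal genes can be compared. In TRAMP, Krt18 was at 1084 CPM per kilobase, Krt19 at 641, Krt8 at 282 and Krt7 at 30.4. In the Phf8-KO pools Krt19 came first, at 1588 and 1115 CPM per kilobase, ahead of Krt18 at 908 and 938. The ranges of these genes over the Phf8-KO pools did not overlap. The ratio of Krt19 to Krt18 per kilobase was 0.592 in TRAMP, 1.75 in Phf8-KO1 and 1.19 in Phf8-KO2, and the ratio of Krt18 to Krt8 was 3.84, 2.60 and 2.50. The GENCODE gene of Krt7, whose main transcript has 4094 bases, ends 2507 bases beyond the gene in RefSeq. On a shorter transcript the level of Krt7 per kilobase would be higher.

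The basal keratins were low beside Krt8, Krt18 and Krt19 and went separate ways. Krt15 lay at 148 CPM in TRAMP against 16.2 in Phf8-KO1 and 47.1 in Phf8-KO2. Both Phf8-KO pools lay below TRAMP, by 9.13 times in Phf8-KO1 and 3.14 times in Phf8-KO2, and they lay 2.91 times apart from each other (95% counting interval 2.61 to 3.25). The log2 fold change of Krt15 was -2.22 (standard error 0.66), and the adjusted p was 0.15 in edgeR and 0.0049 in DESeq2.

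Krt14 lay at 2.77 CPM in TRAMP against 11.8 in Phf8-KO1 and 8.90 in Phf8-KO2, above TRAMP in both pools by 4.27 times (95% counting interval 3.33 to 5.53) and 3.22 times (2.50 to 4.17). Its log2 fold change was 1.90 (standard error 0.46), and the adjusted p was 0.12 in edgeR and 0.012 in DESeq2. Krt17 had 27 counts in TRAMP, 170 in Phf8-KO1 and 75 in Phf8-KO2, or 0.934, 6.38 and 2.26 CPM. Both pools were again above TRAMP, but the log2 fold change of 2.20 had a standard error of 0.94 and was called by neither tool (edgeR adjusted p = 0.23, 0.13 from DESeq2).

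Krt5, the type II partner of Krt14, lay at 16.9 CPM in TRAMP against 9.80 in Phf8-KO1 and 30.6 in Phf8-KO2. TRAMP thus lay between the Phf8-KO pools, which were 3.12 times apart (95% counting interval 2.72 to 3.59), and the log2 fold change of 0.26 had a standard error of 0.75 (edgeR adjusted p = 0.84). Trp63, which encodes the p63 transcription factor of basal cells and was chosen after its values were seen, had the same order as Krt5, at 9.52 CPM in TRAMP against 3.53 in Phf8-KO1 and 16.2 in Phf8-KO2. Most other basal cell genes did not have this order. Of a list of 10 that includes Trp63, 8 lay above TRAMP in both pools (41% of all genes).

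Together the basal keratins took 168 CPM in TRAMP against 44.2 in Phf8-KO1 and 88.9 in Phf8-KO2. This order was that of Krt15, which made up 89.8% of the basal class per kilobase in TRAMP but 38.0% in Phf8-KO1 and 57.3% in Phf8-KO2. The 3 other basal keratins together lay at 20.6 CPM in TRAMP against 28.0 in Phf8-KO1 and 41.8 in Phf8-KO2, a comparison made after the values were seen, and so lay above TRAMP in both pools. Per kilobase, Krt15 was 53.3 times Krt14 in TRAMP, 1.37 times in Phf8-KO1 and 5.28 times in Phf8-KO2. Krt14 was 0.213 times Krt5 in TRAMP, 1.56 times in Phf8-KO1 and 0.376 times in Phf8-KO2. Over the Phf8-KO pools, Krt5 ranged from 4.46 to 13.9 CPM per kilobase and overlapped both with Krt15, at 9.52 to 27.7, and with Krt14, at 5.24 to 6.96, while Krt17 stayed below them at 1.46 to 4.11.

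**Figure D2:**
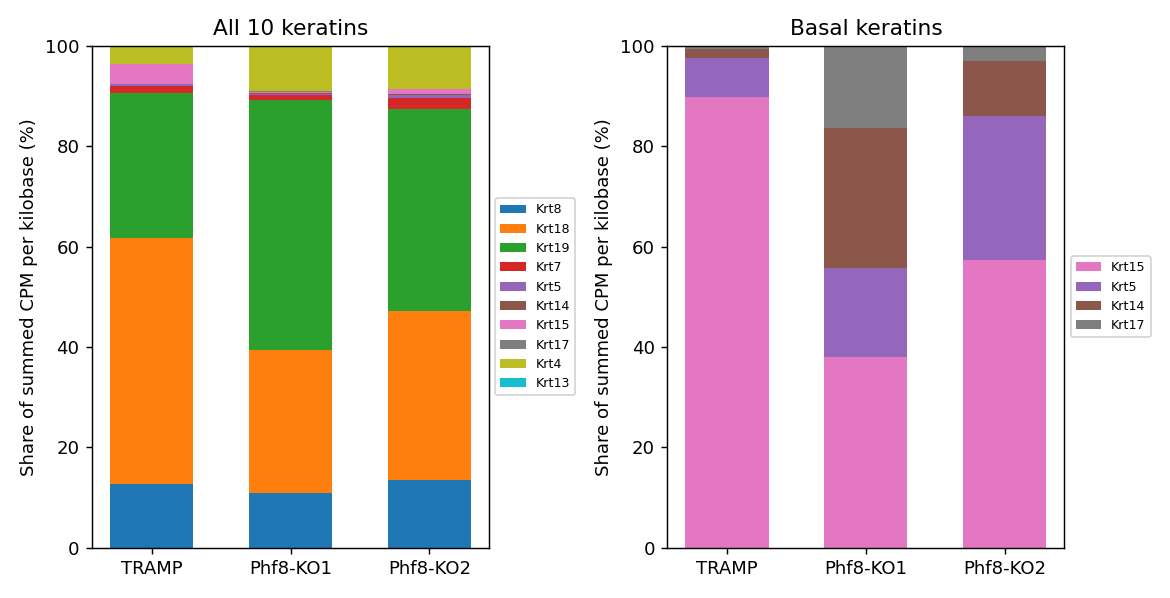
Share of each keratin in the summed CPM per kilobase (stacked bars, in percent) for all 10 keratins (left) and for the 4 basal keratins (right), by library. Krt19 takes 29.0% of the 10 in TRAMP and 49.8% and 40.1% in the Phf8-KO pools, and Krt15 takes 89.8% of the basal class in TRAMP and 38.0% and 57.3% in the Phf8-KO pools.

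The squamous-type class was in effect Krt4. Krt4 lay at 169 CPM in TRAMP against 610 in Phf8-KO1 and 511 in Phf8-KO2. Both Phf8-KO pools were above TRAMP, by 3.61 times (95% counting interval 3.50 to 3.73) and 3.02 times (2.93 to 3.12), and they differed less from each other than from TRAMP. The log2 fold change of Krt4 was 1.73 (standard error 0.28), and the adjusted p was 0.10 in edgeR and 5.6e-08 in DESeq2. Krt13, its usual type I partner, had 8 counts in TRAMP, 6 in Phf8-KO1 and 14 in Phf8-KO2. It entered the test only through Phf8-KO2, and the counting intervals of its ratios to TRAMP (0.233 to 2.67 and 0.597 to 4.20) both include 1, so no difference was detectable at this depth. Krt4 thus far exceeded Krt13 in every library, at 473 times its level per kilobase in TRAMP and 2101 and 937 times in the Phf8-KO pools.

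**Figure D3:**
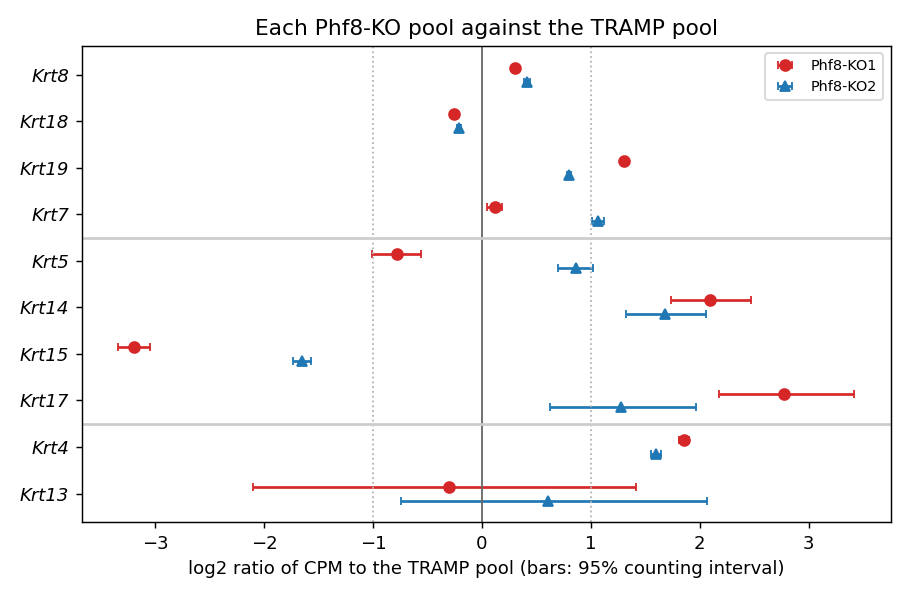
Log2 ratio of CPM to the TRAMP pool for each keratin, where circles stand for Phf8-KO1, triangles for Phf8-KO2 and bars for the 95% counting interval, which covers counting error only. The solid line marks no difference and the dotted lines a 2-fold difference. Krt14, Krt17 and Krt4 lie beyond the dotted line to the right in both pools, and Krt15 to the left. Krt5 and Krt13 lie on both sides of the solid line, and both bars of Krt13 cross it.

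The classes were then compared by their summed levels. Luminal keratins summed to 3245 CPM in TRAMP against 4626 in Phf8-KO1 and 4102 in Phf8-KO2, which is 1.43 and 1.26 times TRAMP. Among the luminal members only Krt19 had this order, at 1011 CPM in TRAMP against 2503 in Phf8-KO1 and 1757 in Phf8-KO2. Krt18 lay below TRAMP in both pools, so the sum does not stand for each member. Squamous-type keratins summed to 169 CPM in TRAMP and to 610 and 511 CPM, while the basal sum was lower by 3.81 and 1.89 times. Basal keratins were 5.19% of the luminal sum in TRAMP, 0.955% in Phf8-KO1 and 2.17% in Phf8-KO2. Without Krt15, a comparison made after the values were seen, the basal share of the luminal sum was 0.634%, 0.605% and 1.02%, with TRAMP between the pools. For each class sum both Phf8-KO pools lay on one side of TRAMP. No test of the sums was run, since with 1 library against 2 a one-sided exact permutation test cannot give a p below 0.33.

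Type I and type II keratins were not measured in equal amounts. Per kilobase, the 6 type I members were 4.54 times the 4 type II members in TRAMP, 3.74 times in Phf8-KO1 and 3.01 times in Phf8-KO2. With all 54 keratin genes of the table the ratios were 4.67, 3.73 and 2.92, so the keratins left out of the list changed them little. The type II sum was 399 CPM per kilobase in TRAMP and 673 and 693 in the Phf8-KO pools, which were above TRAMP and close to each other. Krt4 made up a large part of this difference, at 79.2 CPM per kilobase in TRAMP against 286 and 239. Krt5 lay below TRAMP in Phf8-KO1, at 4.46 against 7.67 CPM per kilobase, so the sum does not stand for each member.

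Neighboring keratins could differ in direction. On chromosome 11 of GRCm38, Krt15 (100131758 to 100135928) lies 4881 bases from Krt19 (100140810 to 100148665), both on the minus strand. Krt15 was lower and Krt19 higher in both Phf8-KO pools. On chromosome 15, Krt8 (101996698 to 102004482, minus strand, 9 exons) lies 23697 bases from Krt18 (102028180 to 102032027, plus strand, 7 exons), the one type I member in the type II cluster. Both had small differences from TRAMP, in opposite directions. Krt4 (101918535 to 101924735, 9 exons) is in the same cluster, with Krt79 and Krt78 between it and Krt8.

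Among the 44 other keratin genes, 8 reached 1 CPM in any library and 20 had 0 counts in all of them. Krt78, a type II keratin next to Krt79 in the cluster, lay at 3.84 CPM in TRAMP against 42.6 in Phf8-KO1 and 97.7 in Phf8-KO2. Both Phf8-KO pools were far above TRAMP (log2 fold change 4.19, standard error 0.71, edgeR adjusted p = 0.10, 3.9e-11 from DESeq2). Krt20, a type I keratin of urothelium and gut, was at 57.1 CPM in TRAMP and had 4 counts in Phf8-KO1 and 1 count in Phf8-KO2. Krt23 was at 64.6, 76.0 and 45.6 CPM in TRAMP, Phf8-KO1 and Phf8-KO2, with TRAMP between the pools. Krt80 was at 5.33, 3.27 and 10.7 CPM in the same order, again with TRAMP between the pools. The keratins of epidermis were low, with Krt10 at 2.67 to 2.81 CPM and Krt1 at 0.623 to 1.43 CPM, and Krt79 was at 0.413 to 1.42 CPM. Krt6a, a stress keratin, lay at 0.277 CPM in TRAMP against 1.61 in Phf8-KO1 and 0.151 in Phf8-KO2, while Krt16 and Krt6b had at most 3 counts.

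**Figure D4:**
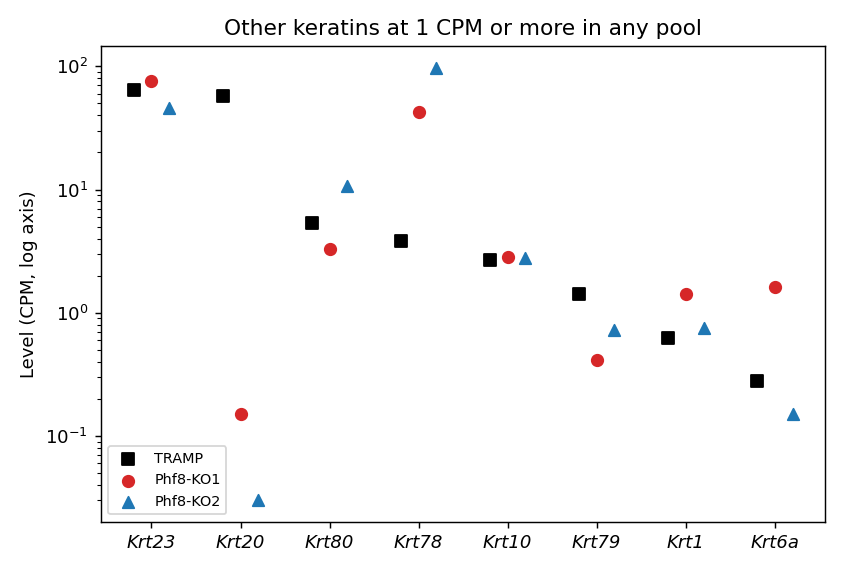
Level in CPM (log axis) of the 8 other keratins that reached 1 CPM in any library (square, TRAMP; circle, Phf8-KO1; triangle, Phf8-KO2). Krt78 lies at 3.84 CPM in TRAMP against 42.6 and 97.7 in the Phf8-KO pools, and Krt20 has 4 counts in Phf8-KO1 and 1 count in Phf8-KO2.

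Desmosomes and plakin proteins anchor keratin filaments to the cell border. Of 13 such genes, 11 lay above TRAMP in both Phf8-KO pools and 1 below, against 41% and 42.8% of all genes, and their median log2 fold change was 1.18, against 0.0099 over all genes tested. edgeR called 0 of them, DESeq2 called 6 higher and 1 lower (9.42% and 4.59% of all genes), and an unadjusted p below 0.05 was reached by 7 on the higher side and 1 on the lower (14.9% and 12.2% of all genes). Dsp, the desmoplakin gene, lay at 105 CPM in TRAMP against 222 in Phf8-KO1 and 255 in Phf8-KO2. Jup, the plakoglobin gene, lay at 59.6 CPM in TRAMP against 201 in Phf8-KO1 and 192 in Phf8-KO2, and both genes were higher in the Phf8-KO pools with little difference between them. Dsg2, a desmosomal cadherin gene, was at 107, 150 and 111 CPM, with Phf8-KO2 close to TRAMP. The 1 gene that DESeq2 called lower was Dsg3, a desmosomal cadherin of stratified epithelium, named after its values were seen, at 4.91 CPM in TRAMP with 0 counts in Phf8-KO1 and 1 in Phf8-KO2.

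Genes of squamous differentiation did not all share the direction of Krt4. Of 12 listed genes, 8 could be tested, with 4 below and 3 above TRAMP in both Phf8-KO pools (42.8% and 41% of all genes) and a median log2 fold change of -0.51. edgeR called 0 of these, DESeq2 called 3 higher and 1 lower (9.42% and 4.59% of all genes), and an unadjusted p below 0.05 was reached by 3 on the higher side and 1 on the lower (14.9% and 12.2%). Sprr1a, a cornified envelope gene, lay at 34.8 CPM in TRAMP against 181 in Phf8-KO1 and 218 in Phf8-KO2, so it was higher in both. Ivl, the involucrin gene, named after its values were seen, lay at 36.2 CPM in TRAMP against 1.09 in Phf8-KO1 and 1.84 in Phf8-KO2, so it was lower in both. Spink5, a protease inhibitor gene, lay at 620 CPM in TRAMP against 21.2 in Phf8-KO1 and 836 in Phf8-KO2, so that Phf8-KO1 alone was low. Sbsn, the suprabasin gene, was at 12.9, 30.9 and 24.2 CPM, higher in both Phf8-KO pools.

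Genes of the epithelium as a whole were examined next. Of 10 epithelial junction genes, 8 lay above TRAMP in both Phf8-KO pools (41% of all genes) and 0 below, with a median log2 fold change of 0.67. edgeR called 0 of them, DESeq2 called 4 higher (9.42% of all genes), and 4 reached an unadjusted p below 0.05 on the higher side (14.9%). Epcam lay at 1220 CPM in TRAMP against 1731 in Phf8-KO1 and 1294 in Phf8-KO2, and Cdh1, the E-cadherin gene, was at 516, 921 and 1192 CPM. Cldn4, a tight junction gene, was at 127, 325 and 449 CPM, above TRAMP in both pools. The ratio of the summed 10 keratins to the summed 10 junction genes was 1.53 in TRAMP, 1.44 in Phf8-KO1 and 1.19 in Phf8-KO2, so the keratin total did not exceed that of TRAMP on this scale. The ratio of Krt19 to Epcam was 0.829, 1.45 and 1.36, and that of Krt4 to Epcam 0.139, 0.352 and 0.395, above TRAMP in both pools. Against the other named junction genes, in ratios added after the values were seen, this held only for Krt4 against Cdh1. The ratio of Krt19 to Cdh1 was 1.96, 2.72 and 1.47 and that of Krt19 to Cldn4 was 7.99, 7.70 and 3.91, below TRAMP in Phf8-KO2 for both. The ratio of Krt4 to Cdh1 was 0.328, 0.662 and 0.429, above TRAMP in both pools, and that of Krt4 to Cldn4 was 1.33, 1.88 and 1.14, with TRAMP between the pools.

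Other genes of basal cells were compared with the basal keratins. Of 10, 8 lay above TRAMP in both Phf8-KO pools (41% of all genes) and 0 below, with a median log2 fold change of 0.81. edgeR called 0 of them, DESeq2 called 2 higher (9.42% of all genes), and 5 reached an unadjusted p below 0.05 on the higher side (14.9%). Itga6, an integrin gene of hemidesmosomes, lay at 69.7 CPM in TRAMP against 131 in Phf8-KO1 and 127 in Phf8-KO2. Dst, which encodes a plakin of the hemidesmosome, was at 134, 117 and 148 CPM, with TRAMP between the pools. The ratio of Krt15 to Trp63 was 15.5 in TRAMP, 4.59 in Phf8-KO1 and 2.91 in Phf8-KO2, so Krt15 was also lower relative to this basal gene, whereas the ratio of Krt5 to Trp63 was 1.77, 2.78 and 1.89.

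Of 9 other luminal genes, 4 lay above and 3 below TRAMP in both Phf8-KO pools (41% and 42.8% of all genes), with a median log2 fold change of 0.27. edgeR called 0 of them. Cldn10, a claudin gene named after its values were seen, was the 1 gene that DESeq2 called lower (4.59% of all genes). Cldn10 was also the 1 gene with an unadjusted p below 0.05 in edgeR, on the lower side (12.2% of all genes). Cd24a, a surface protein gene of luminal cells, was at 1088, 1388 and 1239 CPM in TRAMP, Phf8-KO1 and Phf8-KO2. Foxa1, a transcription factor gene of luminal cells, was at 267, 406 and 464 CPM, above TRAMP in both pools.

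**Figure D5:**
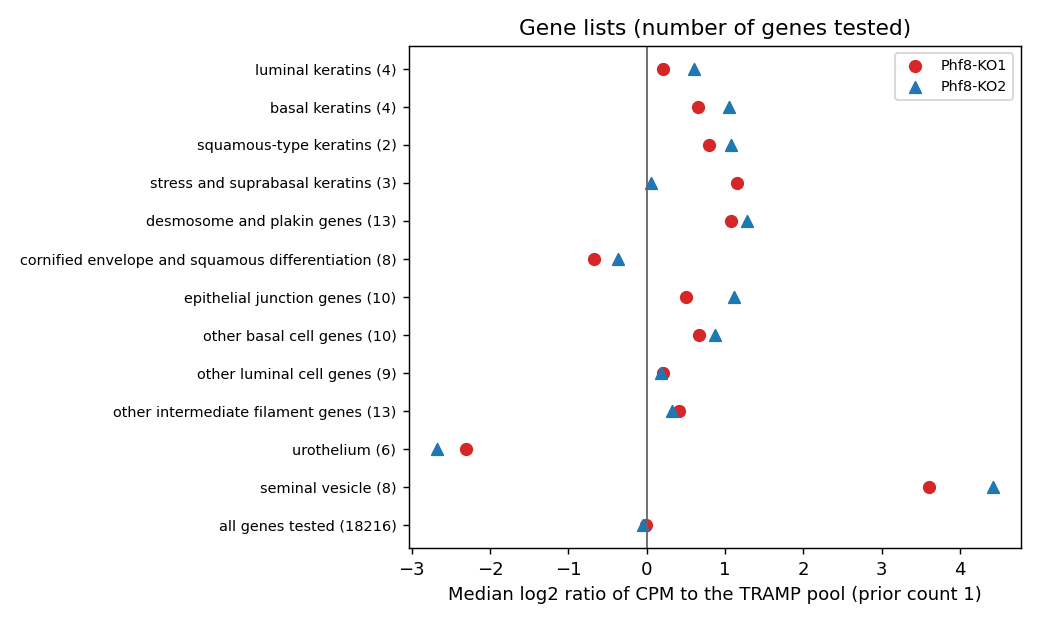
Median log2 ratio of CPM to the TRAMP pool (prior count of 1) over the tested genes of each list, by pool (circle, Phf8-KO1; triangle, Phf8-KO2), with the number of genes in brackets. Desmosome and plakin genes lie at 1.08 and 1.28, urothelial genes at -2.31 and -2.68, seminal vesicle genes at 3.60 and 4.42, and all genes tested near 0.

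Markers of other tissues and cell types differed between the libraries too. The summed level of 8 seminal vesicle genes was 118 CPM in TRAMP against 1453 in Phf8-KO1 and 2144 in Phf8-KO2. All 8 lay above TRAMP in both pools, against 41% of all genes. The most abundant, Svs5, was at 39.7, 494 and 711 CPM. The 6 urothelial genes summed to 893 CPM in TRAMP and to 879 and 905 CPM. Even so, 4 of them, Krt20 included, were lower in both pools (42.8% of all genes). Upk3b, named after its values were seen, had 0 counts in Phf8-KO2. Upk1b was at 363, 658 and 636 CPM and Upk1a at 433, 206 and 259 CPM, so these uroplakin genes went opposite ways. The sum of 10 smooth muscle genes was 770 CPM in TRAMP against 5649 in Phf8-KO1 and 446 in Phf8-KO2. That of 10 skeletal muscle genes was 1881, 105 and 18.3 CPM. All 10 skeletal muscle genes lay below TRAMP in both pools (42.8% of all genes), and edgeR called 4 lower (0.0384% of all genes). The 10 neuroendocrine genes summed to 161, 41.8 and 24.4 CPM, and 7 of the 9 that could be tested lay below TRAMP in both pools (42.8% of all genes). Adipocyte genes, of which 8 of 9 were below TRAMP in both pools (42.8% of all genes), summed to 794, 51.4 and 90.9 CPM. All 8 white blood cell genes were also below TRAMP in both pools (42.8% of all genes), with sums of 115, 51.1 and 26.1 CPM. The part of these tissues in the keratin differences was not tested.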

How the data were processed

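Pooled tumor RNA of 1 TRAMP and 2 Phf8-KO libraries was analyzed. The deposited values are raw counts per gene symbol, which the authors obtained by read filtering, HISAT2 mapping to GRCm38 and HTSeq counting. Tool versions, annotation release, read length and strand setting are not given in the sources used here.

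Genes were kept by filterByExpr and scaled by TMM before the quasi-likelihood fit in edgeR 4.0.16 (R 4.3.3, legacy default), and adjusted p-values cover 18216 genes, all 10 members included. Standard errors were obtained as the log2 fold change over the root of the F value. DESeq2 1.42.0 returned an adjusted p for 16269 genes and 9 members, and limma 3.58.1 was a further alternative. TMM factors were 0.965 (TRAMP), 0.997 (Phf8-KO1) and 1.04 (Phf8-KO2). A chi-square comparison of both Phf8-KO pools gave 97.5 for each degree of freedom, so they are not 1 library deposited again. Intervals (95%, exact) cover counting error only. Levels per kilobase use the length of the principal GENCODE M21 transcript. The scripts were tested on simulated data. Where values of a gene are set side by side without names, their order is TRAMP, Phf8-KO1, Phf8-KO2.

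The members and gene lists were chosen with earlier results of these data known. Named genes are the members, other keratins reaching 1 CPM in a library, the 3 most abundant genes of a list, Phf8, and genes marked as chosen after their values were seen. Some genes and sequences under this rule are not reported here. Alternatives were other scalings, filters and tests, and leaving out each Phf8-KO pool.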

Additional observations from a re-analysis of the deposited data

How the results depend on the processing

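The counts of called genes depended on the tool and the filter. The 7 genes called lower and 0 higher by edgeR's quasi-likelihood test (2225 and 2717 at an unadjusted p under 0.05) became 19 and 1 with library size scaling, 856 and 1430 with no filter on low counts, and 747 and 1533 with DESeq2. The number called lower was 0 with a mean CPM of at least 1 and 0 with limma-voom. Of the keratin members, 1 was called lower and 2 higher with no filter (Krt15, and Krt14 and Krt4), and 1 lower and 3 higher with DESeq2. Of the 78 alternative values of the members' fold changes with an adjusted p, 71 kept direction and side of the threshold and 7 passed it. Of the 21 with no adjusted p, 19 kept direction and 2 changed sign: leaving out each Phf8-KO pool gave log2 ratios to TRAMP of -0.78 (without Phf8-KO2) and 0.86 for Krt5, and of -0.30 (without Phf8-KO2) and 0.61 for Krt13. The log2 ratio to TRAMP of the luminal sum was 0.42, and 0.28 after upper quartile scaling, under which the median over all genes went from 0.0099 to -0.14. The log2 ratio of the basal sum was -1.43, and 0.73 without Krt15, an alternative chosen after seeing the data. Leaving out each Phf8-KO pool gave -1.93 to -0.92 for the basal sum, 0.34 to 0.51 for the luminal sum, 1.59 to 1.85 for the squamous-type sum and -2.44 to -1.26 for the basal to luminal ratio. For Krt15 the log2 ratio was -3.19 without Phf8-KO2 and -1.65 without Phf8-KO1. A fit without 1 Phf8-KO pool has no residual degree of freedom, so these are values with no test. No paired analysis was possible because 1 TRAMP library stood against 2 Phf8-KO libraries.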

Other observations

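Of 13 genes of other intermediate filaments, 6 lay above and 2 below TRAMP in both Phf8-KO pools (41% and 42.8% of all genes), with a median log2 fold change of 0.30. edgeR called 0 of them and DESeq2 called 4 higher (9.42% of all genes), and 4 reached an unadjusted p below 0.05 on the higher side (14.9%). The 4 that DESeq2 called, named after their values were seen, were the lamin genes Lmna, Lmnb1 and Lmnb2 of the nuclear lamina, and Nes, which encodes nestin. Lmna lay at 61.4 CPM in TRAMP against 165 in Phf8-KO1 and 155 in Phf8-KO2, and so was higher in both pools with little difference between them. Vim, the vimentin gene of mesenchymal cells, was at 74.9, 99.3 and 54.4 CPM, with TRAMP between the pools. Des, the desmin gene of muscle, which is also a member of the smooth muscle list, was at 68.1, 306 and 30.8 CPM.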
